A study of Mus musculus with 12 samples.

Results

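The SOX transcription factors were followed through a dose series of the WNT pathway activator CHIR99021 in mouse mammary organoids. The 10 members were the rows of the deposited count table with the gene names Sox4, Sox5, Sox6, Sox7, Sox9, Sox10, Sox13, Sox15, Sox18 and Sox21, out of 25210 genes in the table, and all 10 passed the filter on low counts. Sox15 and Sox21 passed it through the treated libraries, because they were near 0 in controls. Organoids came from the mammary glands of virgin female mice of the strain FVB/N, 8 to 11 weeks old, with no genetic change named in the labels. They were grown in Matrigel with minimal medium for 7 days, with the vehicle dimethyl sulfoxide (DMSO) or with CHIR99021 at 1, 1.5 or 3 µM, and CHIR99021 inhibits the kinase GSK3. Each of 3 cultures came from 1 animal and received all 4 treatments, so that every group had 3 libraries and same-numbered libraries shared an animal.

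SOX proteins bind DNA through an HMG box, the domain first described in the sex-determining factor SRY, and bend the double helix at their sites. The TCF and LEF proteins, through which β-catenin acts on WNT target genes, carry a related HMG box, and several SOX proteins are known to raise or to damp that output. Members are sorted into groups by the sequence of the box: SOX9 and SOX10 (group E) specify cartilage, neural crest and glia and are also expressed in mammary epithelium, SOX5, SOX6 and SOX13 (group D) lack an activation domain of their own, SOX7 and SOX18 (group F) act in vessels, SOX4 belongs to group C, SOX21 to group B and SOX15 to group G.

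Windows of 250 bases before annotated starts are shown, because Sox15 and Sox21 had the largest increases and because Sox6, which fell, had the window with most motif matches. They are from RefSeq (GRCm38.p6), which had entries for 6 of the 10 members, 11 windows in all, 6 of them for Sox6. The Sox15 window lies at chr11:69654787-69655036 on the plus strand, ahead of the deposited start of the gene. The Sox21 window lies at chr14:118237031-118237280 on the minus strand and overlaps an exon of the non-coding gene Gm4675. The Sox6 window, at an internal start, lies at chr7:115995087-115995336 on the minus strand and overlaps an exon of Gm45025.
Sox15: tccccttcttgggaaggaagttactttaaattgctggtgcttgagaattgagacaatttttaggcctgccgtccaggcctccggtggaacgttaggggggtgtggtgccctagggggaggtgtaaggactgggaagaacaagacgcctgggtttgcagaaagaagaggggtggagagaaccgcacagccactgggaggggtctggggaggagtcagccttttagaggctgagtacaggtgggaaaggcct
Sox21: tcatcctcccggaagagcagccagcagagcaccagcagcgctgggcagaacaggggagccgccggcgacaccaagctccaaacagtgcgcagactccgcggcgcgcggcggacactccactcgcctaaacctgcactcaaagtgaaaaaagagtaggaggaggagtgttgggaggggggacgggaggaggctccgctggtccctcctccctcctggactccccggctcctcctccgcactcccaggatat
Sox6: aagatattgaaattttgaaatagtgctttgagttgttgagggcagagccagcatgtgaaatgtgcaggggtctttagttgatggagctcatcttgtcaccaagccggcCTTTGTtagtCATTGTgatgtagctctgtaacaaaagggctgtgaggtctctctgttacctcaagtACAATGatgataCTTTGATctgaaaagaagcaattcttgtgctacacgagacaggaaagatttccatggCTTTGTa
Capitals mark matches to the TCF/LEF motifs CTTTGAT and CTTTGAA and to the SOX motifs ACAAAG and ACAATG, searched on both strands. The windows of Sox15 and Sox21 held no match, and the Sox6 window held 1 TCF/LEF match, 64 bases before the start, and 4 SOX matches. Of all 32851 RefSeq windows of this length, 7.48% held either TCF/LEF motif and 25.2% held either SOX motif. These shares are per window and are no background for a window picked from 11 for its matches. The Sox6 window directly ahead of the deposited start of the gene (chr7:116038745-116038994) held 0 TCF/LEF matches and 1 SOX match. A match is a run of letters and not a measured binding site.

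Library totals ran from 10.1 to 24.5 M counts (M for mega). The treatment check showed the WNT feedback gene Axin2 at 2.75 ± 0.491 counts per M library counts (CPM) in DMSO and 83.9 ± 42.3 CPM at 3 µM (SD, n = 3). Lgr5, a receptor gene on the same list of WNT response genes, had 187 ± 39.6 CPM in DMSO and 0.288 ± 0.168 CPM at 3 µM and so fell by 9.34 on the log2 scale (adjusted p = 8.92e-07). Of the 8 genes on that list 4 were called higher and 1 lower at 3 µM. Over all genes tested, 29.9% were called higher and 27.7% lower at 3 µM, and 68.9% were called with the culture as a block. All 8 epithelial markers had counts in every group, with a summed level of 3376 to 5837 CPM in DMSO and 16472 to 33291 CPM at 3 µM, the latter mostly Krt14 and Krt5. Of these 8, 3 were called higher and 2 lower at 3 µM (5 and 2 with the culture as a block), and the luminal keratins Krt8 (mean 825 to 492 CPM) and Krt18 (589 to 423 CPM) were those that fell. Of 8 basal or myoepithelial markers, 3 were called higher and 5 lower at 3 µM, and Oxtr (−7.10, adjusted p = 1.54e-04, and −7.89 without the 3 µM library of culture 1), Cnn1 (−5.54, adjusted p = 0.00637) and Myh11 (−5.25, adjusted p = 1.03e-04), genes of contractile myoepithelium, fell. Markers of other cells were present too. The sum of 8 fibroblast markers was 1633, 7387 and 20538 CPM in DMSO and 178, 980.3 and 4576 CPM at 3 µM in cultures 1, 2 and 3, with culture 3 highest, and 1 of the 8 was called lower at 3 µM (7 with the culture as a block). The sum of immune markers, with 7 of the 8 listed in the table, was 246 to 2439 CPM in DMSO and 38.0 to 114 CPM at 3 µM. The macrophage marker Adgre1 had no row under that name, so its level is not known. Of 4 immune markers tested, 3 were called lower (4 with the block). The part of these cells in the changes of the SOX genes was not tested. In such bulk RNA, fewer cells of a type and less RNA per cell cannot be told apart. CPM below use library sizes with TMM scaling factors.

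At 3 µM, 4 of 10 members rose and 2 fell against DMSO at an adjusted p under 0.05 in edgeR's quasi-likelihood test. Sox15, Sox21, Sox10 and Sox13 rose, and Sox6 and Sox18 fell. Of all 15316 genes tested, 57.5% were called in the same comparison (29.9% higher and 27.7% lower), so the count of 6 members was near the background. The median log2 fold change was −0.04 over the members and −0.03 over all genes. The 3 libraries at 3 µM lay all above DMSO for 4 members and all below for 2, and 60.8% of all genes had libraries that did not overlap in this comparison (30.9% higher and 29.9% lower).

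At 1.5 µM, 5 members were called, 4 higher and 1 lower, against 27.3% of all genes (15.4% higher and 11.8% lower). Sox21, Sox15, Sox10 and Sox5 were higher and Sox18 was lower. At 1 µM, edgeR called 0 members, against 0.242% of all genes (0.189% higher and 0.0522% lower). Sox5 and Sox10 had an unadjusted p under 0.05 there, beside 1798 of all 15316 genes. DESeq2 called 1 member (Sox10, adjusted p = 0.00988), against 3.08% of all genes. A model with the culture as a block called 2, against 5.61% of all genes called in that model. These were Sox10 higher (adjusted p = 0.0336) and Sox18 lower (adjusted p = 0.0403). Libraries did not overlap with DMSO for 3 members at 1 µM, 2 higher and 1 lower, against 19.4% of all genes (11.2% higher and 8.27% lower), and for 6 members at 1.5 µM, 4 higher and 2 lower, against 45.6% (24.9% higher and 20.7% lower). The comparisons at 1, 1.5 and 3 µM share the DMSO libraries and are therefore not independent of each other.

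**Figure D1:**
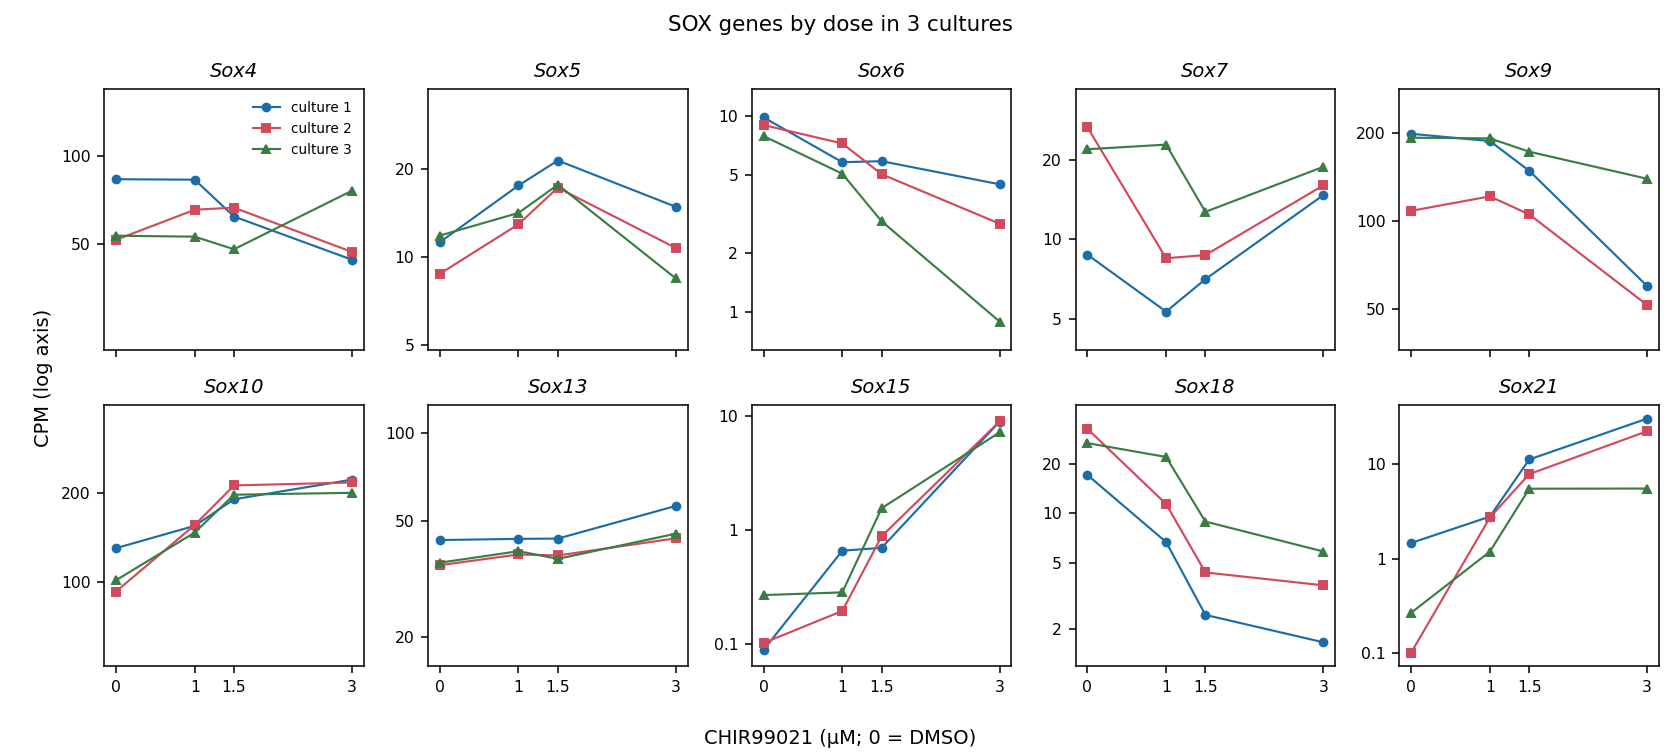
CPM of the 10 SOX genes on log axes against the dose of CHIR99021 in µM (0 is DMSO), with 1 line per culture and 1 point per library. Sox15 lay at 0.0889 to 0.269 CPM in DMSO and 7.25 to 9.05 CPM at 3 µM, Sox18 went down in each culture, and Sox5 was highest at 1.5 µM in each culture.

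Sox15, the single member of group G, is known from trophoblast and muscle precursor cells. It had 0.0889, 0.102 and 0.269 CPM in the DMSO libraries of cultures 1, 2 and 3, which are 2, 1 and 5 counts. It had 0.660, 0.195 and 0.284 CPM at 1 µM, 0.700, 0.884 and 1.56 CPM at 1.5 µM, and 9.02, 9.05 and 7.25 CPM at 3 µM. The groups at 1.5 and 3 µM lay apart from DMSO and from each other, whereas 1 µM overlapped with DMSO. Within cultures, the 3 µM level was 101-fold the DMSO level in culture 1 (95% counting interval 27.5 to 848), 89.1-fold in culture 2 (15.7 to 3544) and 26.9-fold in culture 3 (11.2 to 84.6). These exact binomial intervals cover counting error only. The fitted log2 fold changes were 2.68 ± 0.566 at 1.5 µM (SE, adjusted p = 0.00700) and 5.69 ± 0.578 at 3 µM (adjusted p = 2.81e-05), and the step from 1.5 to 3 µM was 3.00 ± 0.474 (adjusted p = 0.00168). Without the DMSO library of culture 3, the values against DMSO were 3.35 and 6.36. Sox15 (chromosome 11, 69655314 to 69656727, plus strand, GRCm38) overlaps the gene Mpdu1 on the other strand by 31 bases, and Mpdu1 had a log2 fold change of 0.11 at 3 µM (adjusted p = 0.509).

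Sox21, a group B repressor known for its part in the hair shaft cuticle and in neural progenitors, had 1.47, 0.102 and 0.269 CPM in DMSO, or 33, 1 and 5 counts. It reached 2.79, 2.73 and 1.19 CPM at 1 µM, 11.2, 7.84 and 5.50 CPM at 1.5 µM, and 30.3, 22.3 and 5.52 CPM at 3 µM. Cultures 1 and 2 were higher at 3 than at 1.5 µM, whereas culture 3 had nearly the same level at both doses. Its log2 fold changes were 3.58 ± 0.838 at 1.5 µM (SE, adjusted p = 0.0114) and 4.83 ± 0.871 at 3 µM (adjusted p = 0.00101). Without the DMSO library of culture 1, which held 33 counts, they were 5.27 (adjusted p = 0.00542) and 6.52 (adjusted p = 5.70e-04). All 3 cultures were higher than their DMSO library at each dose. The step from 1.5 to 3 µM was 1.25 ± 0.724 (adjusted p = 0.218, with the culture block 0.0483). Sox21 lies on chromosome 14, 118233232 to 118237030, minus strand. It overlaps an exon of Gm4675 on the other strand, which had 0 to 6 counts in DMSO and 2 to 12 at 3 µM. The part of this overlap in the counts of Sox21 was not tested.

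The summed level of 12 squamous and hair differentiation markers rose with dose, as the mean levels of Sox15 and Sox21 did. The sum was 37.2 to 80.7 CPM in DMSO, 302 to 689.8 CPM at 1 µM, 2404 to 5365 CPM at 1.5 µM and 9253 to 33557 CPM at 3 µM. At 3 µM it was mostly the keratins Krt1, Krt10, Krt6a and Krt16 (means 4009.7, 5180.0, 7775 and 6454 CPM). At 3 µM, 10 of the 12 were called higher and 1 lower (29.9% and 27.7% of all genes). Lor, Flg, Ivl, Sprr1b and Foxn1 were near 0 in DMSO (means 0.0444, 0.0444, 0.305, 0.497 and 0.198 CPM). They passed the filter on low counts through the treated libraries. The count called higher therefore depends in part on that filter. Krt71 fell from a mean of 2.46 CPM in DMSO to 0.0753 CPM, while Tchh rose from 1.78 to 55.8 CPM and Foxn1 from 0.198 to 11.4 CPM. Hoxc13 overlapped between DMSO (0 to 1.69 CPM) and 3 µM (0.483 to 8.66 CPM). Krt1, a keratin of the suprabasal epidermis with 3 to 27 counts in DMSO, passed the filter on low counts through the treated libraries. It had a log2 fold change of 12.46 ± 1.87 (SE, adjusted p = 3.31e-04), or 13.33 without the DMSO library and 11.83 without the 3 µM library of culture 1. Within the 3 µM group, culture 3 was lowest for this sum (9253 CPM, against 33557 and 30869 CPM in cultures 1 and 2) and also lowest for Sox21. The part of these cells in the change of the SOX genes was not tested.

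Sox10, a group E factor of neural crest, glia and the mammary epithelium, was already among the 2 most abundant members in DMSO and was higher in all 3 cultures at each dose. It had 130.0, 92.4 and 101 CPM in DMSO, 155, 156 and 147 CPM at 1 µM, 191, 213 and 198 CPM at 1.5 µM, and 223, 218 and 201 CPM at 3 µM. All libraries of each dose lay above all DMSO libraries, and 1.5 and 3 µM overlapped. The log2 fold changes were 0.90 ± 0.116 at 1.5 µM (SE, adjusted p = 7.27e-04) and 0.99 ± 0.117 at 3 µM (adjusted p = 6.98e-05), while that at 1 µM was 0.50 ± 0.116 (adjusted p = 0.124). Between 1.5 and 3 µM the difference was 0.09 ± 0.115 (adjusted p = 0.576), smaller than its SE. A test of the 4 group means against a straight line in dose gave an adjusted p of 0.0964 for Sox10, 0.0339 with the culture block and 0.0293 without the DMSO library of culture 1.

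Sox9, the group E factor that drives cartilage and marks progenitor cells in several epithelia, had 198, 108 and 192 CPM in DMSO, 187, 121 and 191 CPM at 1 µM, 148, 105 and 172 CPM at 1.5 µM, and 59.7, 51.4 and 139 CPM at 3 µM. Culture 3 was highest at 3 µM and there lay above the DMSO library of culture 2, so the groups overlapped. Against their own DMSO library, cultures 1, 2 and 3 had 0.301, 0.474 and 0.728 times the level at 3 µM. The log2 fold change at 3 µM was −0.99 ± 0.392 (SE), with an adjusted p of 0.0508 that missed the threshold. With the culture block the adjusted p was 0.00207, in DESeq2 it was 0.0170, without the DMSO library of culture 2 it was 0.0301, and without the 3 µM library of culture 3 it was 0.00258 at a log2 fold change of −1.60. The slope over dose, −0.35 ± 0.130 log2 units per µM, was called (adjusted p = 0.0346), but not without the DMSO library of culture 1 (0.0678) or 3 (0.0579) or without the 3 µM library of culture 1 (0.113) or 2 (0.113). Sox9 lies on chromosome 11 (112782224 to 112787760, plus strand) and Sox10 on chromosome 15 (79154913 to 79164490, minus strand). Culture 3 also held most fibroblast marker RNA at 3 µM, and the part of those cells in the level of Sox9 was not tested.

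The level of Sox10 relative to Sox9 went up within each culture. Per kilobase of exon, the ratio of Sox10 to Sox9 was 0.888, 1.16 and 0.716 in DMSO, 1.12, 1.75 and 1.04 at 1 µM, 1.75, 2.74 and 1.57 at 1.5 µM, and 5.07, 5.74 and 1.96 at 3 µM. All 3 µM ratios lay above all DMSO ratios, and culture 3 had the smallest ratio at each dose. No test was made of this ratio.

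Genes that SOX9, SOX5 and SOX6 are known to drive in cartilage and that SOX10 drives in glia and pigment cells were examined next. Of 12 cartilage genes 8 were tested, with 0 higher and 6 lower at 3 µM and a median log2 fold change of −3.43 (all genes −0.03), and 2 were lower at 1.5 µM. With the culture block, 5 were lower at 1.5 µM and 7 at 3 µM. Among them Col11a1, a fibrillar collagen chain, went from 268 ± 54.9 to 10.9 ± 2.37 CPM (SD, n = 3, log2 fold change −4.62 ± 0.320 SE, adjusted p = 3.77e-06). Col9a1 (−3.78, adjusted p = 9.21e-04, but −2.97 without the DMSO library and −4.80 without the 3 µM library of culture 3) and Col9a2 (−3.39, adjusted p = 2.46e-04), chains of collagen IX, fell as well. Of 14 genes on the neural crest and glial list 10 were tested, with 3 higher and 4 lower at 3 µM, 2 higher and 2 lower at 1.5 µM, and a median of −1.31 at 3 µM. Over all genes, 29.9% were called higher and 27.7% lower at 3 µM, and 15.4% and 11.8% at 1.5 µM. With the block, 4 of these 10 were lower at 1.5 µM and 6 at 3 µM, and 1 was lower at 1 µM. In that model 46.7%, 68.9% and 5.61% of all genes were called at these doses, in either direction. S100b, a calcium-binding protein of glia, fell by 3.13 on the log2 scale (adjusted p = 0.0278), a call lost without the 3 µM library of culture 1 (0.0837) or 2 (0.0891) or the DMSO library of culture 2 (0.0945, at −2.39). Without the 3 µM library of culture 3 the value for S100b was −3.76. Mbp, a myelin gene, rose by 0.77 (adjusted p = 2.30e-04). The 8 melanocyte and Schwann cell markers summed to 11.3 to 23.7 CPM in DMSO, with Tyr and Tyrp1 at 0, and to 2.35 to 4.21 CPM at 3 µM, with Dct, Tyr and Tyrp1 at 0, a direction opposite to that of Sox10.

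**Figure D2:**
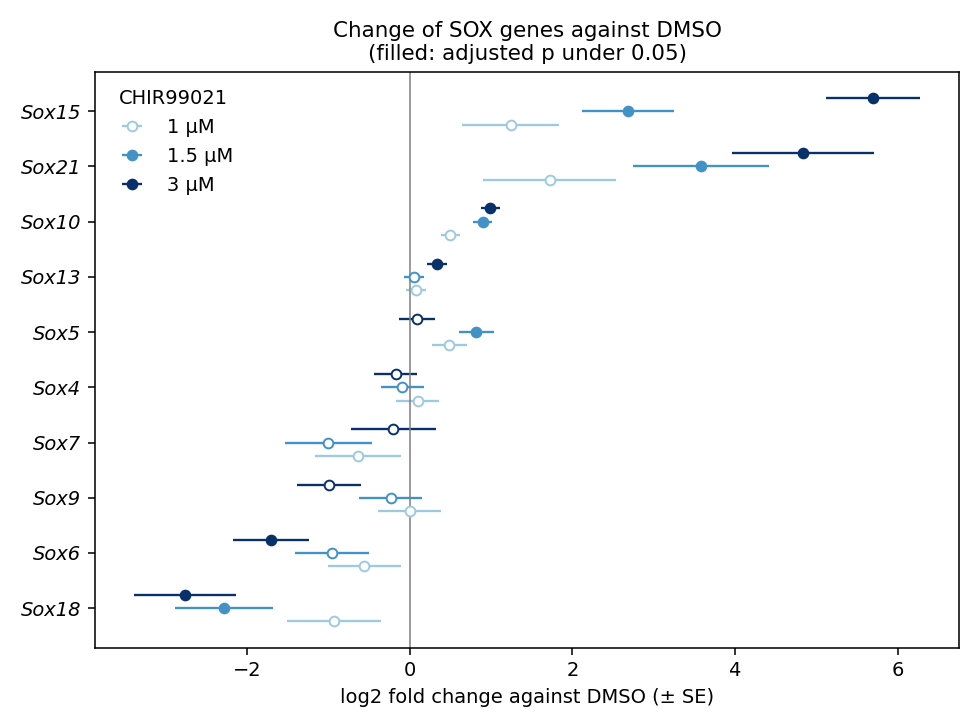
Log2 fold change against DMSO at 1, 1.5 and 3 µM for each SOX gene from edgeR's model over 12 libraries, with bars of 1 SE, and filled points where the adjusted p was under 0.05. At 3 µM the values run from −2.76 for Sox18 to 5.69 for Sox15.

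The 3 members of group D moved in 3 different ways. Sox6 had 9.78, 8.94 and 7.86 CPM in DMSO, 5.79, 7.21 and 5.06 CPM at 1 µM, 5.86, 5.03 and 2.90 CPM at 1.5 µM, and 4.47, 2.82 and 0.897 CPM at 3 µM. Every treated library lay below every DMSO library, and culture 3 was lowest at each dose. Its log2 fold change at 3 µM was −1.70 ± 0.468 (SE, adjusted p = 0.0104), and that at 1.5 µM was −0.95 ± 0.453 (adjusted p = 0.146, with the culture block 0.0264, without the 3 µM library of culture 3 0.0286). The slopes of the 3 cultures differed at an unadjusted p of 0.00872 for Sox6 but not after adjustment (0.470).

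Sox5 had 11.2, 8.73 and 11.8 CPM in DMSO, 17.5, 12.9 and 14.1 CPM at 1 µM, 21.3, 17.2 and 17.6 CPM at 1.5 µM, and 14.8, 10.7 and 8.42 CPM at 3 µM. Its level was highest at 1.5 µM in 3 of 3 cultures and at 3 µM overlapped with DMSO again. The log2 fold change was 0.82 ± 0.218 at 1.5 µM (SE, adjusted p = 0.0196) and 0.09 ± 0.219 at 3 µM (adjusted p = 0.734), and the step from 1.5 to 3 µM was −0.73 ± 0.218 (adjusted p = 0.0307). The departure from a straight line had an adjusted p of 0.0843, and of 0.0126 with the culture block. The increase at 1.5 µM was not called without the 1.5 µM library of culture 1 (adjusted p = 0.0745) or the DMSO library of culture 2 (0.0882). The step down was not called without any 1 of 5 libraries (0.0555 to 0.0995). These were the 3 at 1.5 µM and those of cultures 2 and 3 at 3 µM. With the culture block over all libraries, the increase (adjusted p = 0.00294) and the step down (0.00493) were called.

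Sox13 had 42.9, 35.2 and 35.9 CPM in DMSO, 43.3, 38.3 and 39.3 CPM at 1 µM, 43.4, 38.0 and 37.0 CPM at 1.5 µM, and 56.1, 43.5 and 45.1 CPM at 3 µM. The 3 µM libraries lay above those of DMSO by a narrow margin, with a log2 fold change of 0.34 ± 0.124 (SE, adjusted p = 0.0362). In 11 of 21 alternative fits this call was lost. Among these were scaling by library size alone (0.14, adjusted p = 0.408) and DESeq2 (0.0541). It was also lost without the 3 µM library of culture 1 (0.201), the DMSO library of culture 2 (0.141) or that of culture 3 (0.151). With the culture block over all libraries the call was kept (adjusted p = 0.00145). Cultures 1, 2 and 3 had 1.31, 1.23 and 1.25 times their own DMSO level at 3 µM. On GRCm38, Sox5 lies on chromosome 6 (143828425 to 144781977), Sox6 on chromosome 7 (115471344 to 116038744) and Sox13 on chromosome 1 (133382303 to 133424377), all on the minus strand. Sox5 overlaps an exon of Sox5os1 on the other strand, which had 0 to 1 counts in DMSO and 0 at 3 µM.

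Sox18, a group F factor of endothelial and lymphatic development, fell with dose. It had 17.1, 32.6 and 26.7 CPM in DMSO, 6.70, 11.4 and 22.0 CPM at 1 µM, 2.42, 4.38 and 8.92 CPM at 1.5 µM, and 1.65, 3.66 and 5.87 CPM at 3 µM. The level went down at each step of dose in each culture, and culture 3 stayed highest at every dose of CHIR99021. The log2 fold changes were −2.28 ± 0.605 at 1.5 µM (SE, adjusted p = 0.0198) and −2.76 ± 0.622 at 3 µM (adjusted p = 0.00364). That at 1.5 µM was not called without the 1.5 µM library of culture 1 (adjusted p = 0.0696) or 2 (0.0728) or the DMSO library of culture 2 (0.0645), and was −2.88 without the 1.5 µM library of culture 3. With the culture block over all libraries, the change at 1.5 µM was called (adjusted p = 1.75e-04). From 1 to 1.5 µM the difference was −1.35 ± 0.591 (adjusted p = 0.219, with the culture block 0.00795).

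Sox7, the other group F member on the list, had 8.75, 26.5 and 21.9 CPM in DMSO, 5.33, 8.48 and 22.8 CPM at 1 µM, 7.07, 8.72 and 12.7 CPM at 1.5 µM, and 14.7, 16.0 and 18.8 CPM at 3 µM. Its level at 1.5 µM was below DMSO in 3 of 3 cultures, and at 3 µM all libraries lay above those of 1.5 µM and within the range of DMSO. No comparison called Sox7. The adjusted p was 0.189 at 1.5 µM, and at 3 µM the log2 fold change was −0.20 ± 0.526 (SE, adjusted p = 0.760).

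Endothelial markers were set beside group F in each library. All 8 markers had counts in every group, and their sum was 323 to 657 CPM in DMSO, 128 to 432 CPM at 1 µM, 49.3 to 239 CPM at 1.5 µM and 35.8 to 109 CPM at 3 µM, with 8 of 8 called lower at 3 µM. Per 100 CPM of these markers, Sox18 stayed between 3.73 and 6.02 CPM in all 12 libraries. For Sox7 the same quantity was 2.71 to 4.11 CPM in DMSO and 17.2 to 41.1 CPM at 3 µM, with no overlap between these groups. Of 9 genes that SOX7 or SOX18 are known to regulate in endothelium, 1 was higher and 6 were lower at 3 µM, with a median log2 fold change of −2.24, and 1 was higher and 4 were lower at 1.5 µM. Over all genes, 29.9% were called higher and 27.7% lower at 3 µM, and 15.4% and 11.8% at 1.5 µM. With the culture block, 6 of the 9 were lower at 1.5 µM and 1 at 1 µM. In that model 46.7% and 5.61% of all genes were called at these doses, in either direction. Cldn5, a tight junction protein of vessels, fell by 2.97 on the log2 scale (adjusted p = 0.00309). Cdh5 and Tie1 are on both lists. Sox18 lies on chromosome 2 (181669836 to 181671640, minus strand) and Sox7 on chromosome 14 (63943674 to 63950732, plus strand). The part of endothelial cell number in the fall of Sox18 was not tested.

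**Figure D3:**
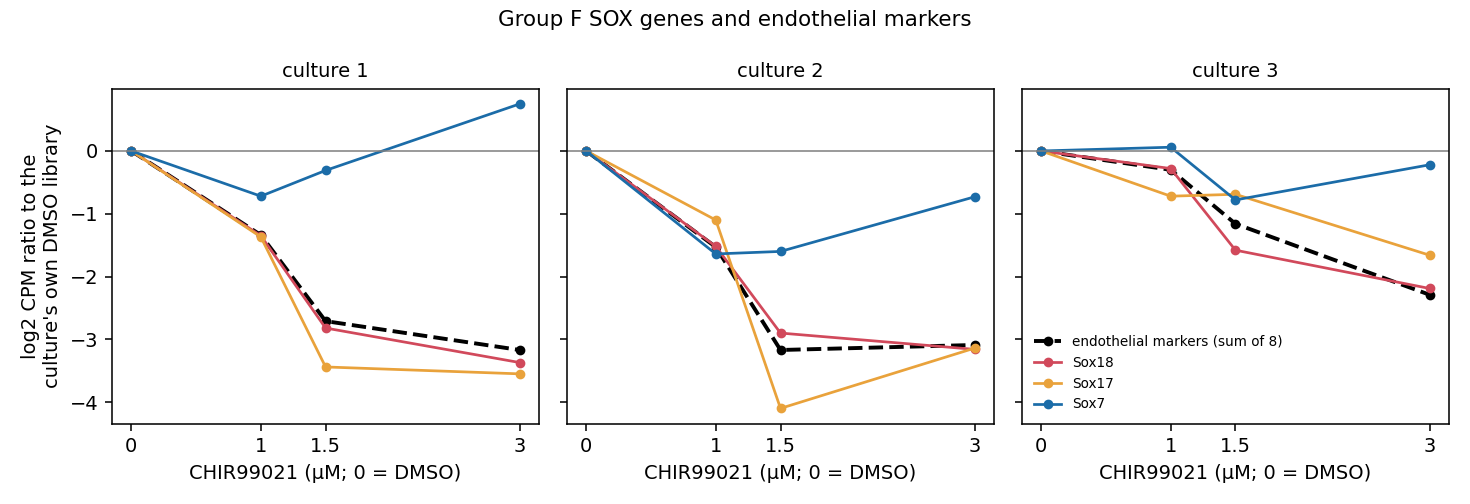
Log2 ratio of CPM to the culture's own DMSO library against the dose of CHIR99021 in µM, 1 panel per culture, for Sox7, Sox17, Sox18 and the sum of 8 endothelial markers (dashed). Sox18 runs along the marker sum, to −3.37, −3.16 and −2.19 at 3 µM against −3.17, −3.09 and −2.29 for the markers, and Sox7 does not, with 0.75, −0.73 and −0.22.

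Sox4 (chromosome 13, 28948919 to 28953713, minus strand, overlapping an exon of Gm26735 on the other strand), a group C factor of progenitor cells, was not called in any comparison. It had 83.3, 51.7 and 53.4 CPM in DMSO, 83.0, 65.5 and 53.0 CPM at 1 µM, 62.1, 66.6 and 48.0 CPM at 1.5 µM, and 44.2, 47.0 and 76.1 CPM at 3 µM. The cultures moved apart, with 0.531, 0.909 and 1.42 times their own DMSO level at 3 µM in cultures 1, 2 and 3. The fitted log2 fold change at 3 µM was −0.17 ± 0.266 (SE, adjusted p = 0.595). A test of whether the slope over dose differed between cultures gave an unadjusted p of 0.0189 and an adjusted p of 0.543 for Sox4. This test called 0 members and 0 of all genes (0%), with 2 members and 1230 genes at an unadjusted p under 0.05.

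Between neighbouring doses, edgeR called 0 members from 1 to 1.5 µM, against 5.43% of all genes (4.43% higher and 0.992% lower). In this step 4 members had an unadjusted p under 0.05 in edgeR, beside 3292 of all 15316 genes. DESeq2 called 1 member (Sox10, adjusted p = 0.0439), against 10.7% of all genes. Libraries did not overlap for 3 members, all higher, against 31.2% of all genes (19.3% higher and 11.9% lower). With the culture block 3 were called there, Sox10 and Sox21 higher and Sox18 lower, against 21.9% of all genes in that model. From 1.5 to 3 µM, 2 members were called, Sox15 higher and Sox5 lower, against 29.7% of all genes (17.0% higher and 12.7% lower), and with the block 5 were called, with Sox13 and Sox21 higher and Sox9 lower in addition, against 46.7% of all genes. Libraries of these doses did not overlap for 4 members, 3 higher and 1 lower, against 42.8% of all genes (23.1% higher and 19.7% lower). As a slope over all doses, 7 members were called, 4 higher and 3 lower, against 58.2% of all genes (30.2% higher and 28.0% lower). The slope was −0.95 ± 0.201 log2 units per µM for Sox18 (SE, adjusted p = 0.00169) and 1.61 ± 0.289 for Sox21 (adjusted p = 5.75e-04), and that of Sox15 had an adjusted p of 2.09e-06. The slope of Sox13 (0.11 ± 0.0398, adjusted p = 0.0275) was not called without the 3 µM library of culture 1 or 3 or the DMSO library of culture 2 or 3 (0.0521 to 0.222), and scaling by library size alone gave 0.04 (adjusted p = 0.489). The test against a straight line called 0 members, against 2.59% of all genes. Sox5 and Sox10 had an unadjusted p under 0.05 in it, beside 3179 of all 15316 genes. With the block, Sox5, Sox10 and Sox18 (adjusted p = 0.0422) were called, and the share of all genes there is not given here.

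Levels can be compared between genes per kilobase of exon (RPKM, from CPM and the exon length in GENCODE M21). In DMSO, Sox9 (40.2 RPKM, range 26.2 to 48.0) and Sox10 (35.4, 30.3 to 42.6) led and overlapped, followed by Sox18 (15.7) and Sox4 (13.1), which overlapped with each other, then Sox13 (8.82) and Sox7 (5.78). Sox5 (0.735) and Sox6 (0.597) came next and overlapped, and Sox15 (0.178) and Sox21 (0.161) were last and overlapped. At 3 µM, Sox10 (70.2 RPKM, 66.0 to 73.2) lay apart from all others. It was followed by Sox9 (20.2), Sox4 (11.6), Sox13 (11.2) and Sox15 (9.80), each of which overlapped with the next. Sox21 (5.11) and Sox7 (5.01) overlapped and lay below Sox15, and Sox18 (2.30), Sox5 (0.786) and Sox6 (0.184) were last.

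The summed level of the 10 members changed little beside its makeup. The sum was 121 ± 14.3 RPKM in DMSO and 136 ± 8.98 RPKM at 3 µM (SD, n = 3), and the ranges overlapped (105 to 133 and 128 to 146 RPKM). Sox9 made up 32.8 ± 6.83% of that sum with the vehicle, and 31.1 ± 4.93%, 25.7 ± 5.18% and 14.5 ± 7.48% with rising dose. Sox10 made up 29.2 ± 2.64%, 39.4 ± 4.79%, 49.7 ± 4.23% and 51.7 ± 5.65% in the same order. From DMSO to 3 µM, Sox18 went from 13.5 ± 5.63% to 1.67 ± 0.869% and Sox21 from 0.124 ± 0.145% to 3.83 ± 2.54%. Sox15 went from 0.148% (range 0.0776 to 0.253%) to 7.24% (5.77 to 8.21%), close to the 8.45 ± 2.14% of Sox4 and 8.23 ± 1.27% of Sox13 at 3 µM.

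**Figure D4:**
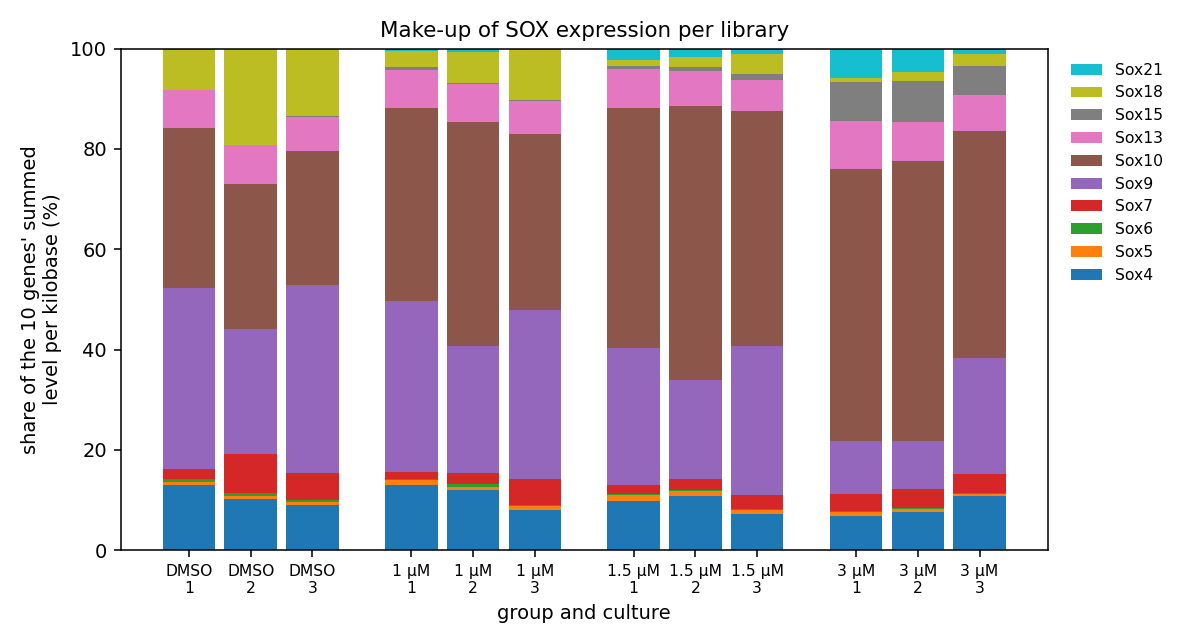
Stacked bars of the share in percent of each SOX gene in the summed RPKM of the 10 members, with 1 bar per library, by group and culture. Sox10 takes 26.8 to 32.0% in the DMSO libraries and 45.2 to 55.7% in those at 3 µM.

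Outside the 10 members, 7 of 10 other SOX genes were in the table and 5 were tested (1 higher and 2 lower at 3 µM, median log2 fold change −0.01), while Sry, Sox1 and Sox3 were not analysed here. Over all genes, 29.9% were called higher and 27.7% lower at 3 µM. Sox2 had at most 9 counts and Sox30 at most 6 in any library, and neither was tested. Sox14, the close relative of Sox21 in group B, rose from 0.530 ± 0.231 CPM in DMSO to 3.47 ± 1.41 CPM at 1.5 µM and 4.46 ± 0.532 CPM at 3 µM (SD, n = 3), with log2 fold changes of 2.70 ± 0.471 (SE, adjusted p = 0.00282) and 3.06 ± 0.476 (adjusted p = 3.90e-04). Sox14 had 5 to 16 counts in DMSO and passed the filter on low counts through the treated libraries. With the culture block Sox14 was also called higher at 1 µM (1.44, adjusted p = 0.0403) and from 1 to 1.5 µM (1.21, adjusted p = 0.0141). Its departure from a straight line in dose had an adjusted p of 0.178, and of 0.0280 with the block. Sox8, the third gene of group E, was at 2.30 ± 0.633 CPM in DMSO, 3.29 ± 0.0782 CPM at 1.5 µM and 0.413 ± 0.254 CPM at 3 µM, and fell by 2.49 on the log2 scale at 3 µM (adjusted p = 0.00234, and −3.10 without the 3 µM library of culture 1). The test of Sox8 against a straight line gave an adjusted p of 0.0771, and of 0.0182 with the culture block. Sox8 overlaps an exon of 2810468N07Rik on the other strand, which had 3.91 ± 1.78 CPM in DMSO and 1.94 ± 0.756 CPM at 3 µM (adjusted p = 0.118, with the culture block 0.00128), and the strand setting of the counting is not given in the sources used here. Sox17, the third gene of group F, fell at 3 µM (−2.44 ± 0.882 SE, adjusted p = 0.0361), to 3, 7 and 18 counts in cultures 1, 2 and 3, a call that was lost (adjusted p 0.0511 to 0.109) without the 3 µM library of culture 1 or 2, the DMSO library of culture 2 or 3, or the 1 µM library of culture 2. Without the 3 µM library of culture 3 it was −3.34, and with the culture block Sox17 was also called lower at 1.5 µM (−2.27, adjusted p = 0.0106). Sox11 was not called in the fit of all 12 libraries without the block. In the fit of only the 2 groups compared it was called higher at 1.5 µM (1.56, adjusted p = 0.0191). At 3 µM its cultures had 3, 15 and 93 counts, or 0.235, 0.963 and 6.42 CPM. Without the 3 µM library of culture 3, Sox11 was called lower at 3 µM (−2.07, adjusted p = 0.00885) and higher at 1.5 µM (1.55, adjusted p = 0.0200). With the block over all libraries, Sox11 was called higher at 1.5 µM (1.65, adjusted p = 0.0376) and lower from 1.5 to 3 µM (−1.96, adjusted p = 0.0215). Sox12 was not called and had 12.9 to 24.0 CPM in all libraries.

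**Figure D5:**
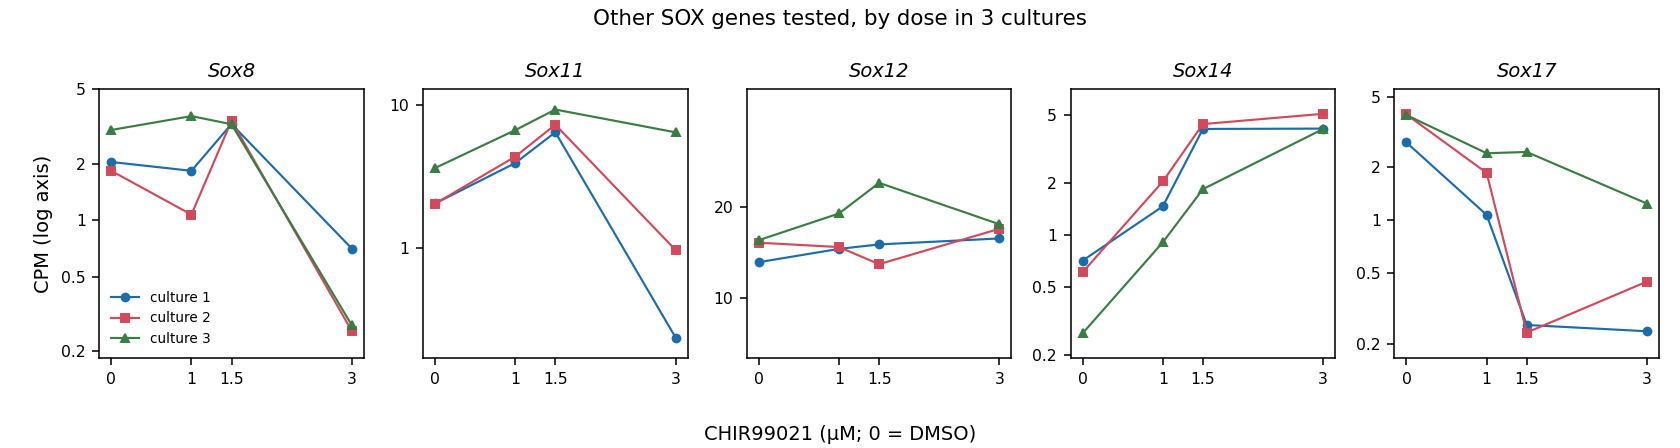
CPM of the 5 other SOX genes that were tested, on log axes, against the dose of CHIR99021 in µM (0 is DMSO), with 1 line per culture. Sox14 lies at 0.269 to 0.711 CPM in DMSO and at 4.14 to 5.07 CPM at 3 µM, and the cultures spread at 3 µM for Sox11 from 0.235 to 6.42 CPM.

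Genes known to act with SOX proteins were also counted. Of 14 partner and cofactor genes 11 were tested, with 4 higher and 4 lower at 3 µM, 3 higher at 1.5 µM and a median log2 fold change of −0.25 at 3 µM, beside 57.5% of all genes called and a median of −0.03 over all genes at 3 µM. With the culture block, 2 were also lower at 1.5 µM, where 46.7% of all genes were called, and 1 was higher at 1 µM. Pax6 and Pou3f2 were too low to test. Pou3f1, a POU factor that acts with SOX10 in Schwann cells, rose from 0.129 ± 0.0423 CPM in DMSO (1 to 4 counts) to 23.9 ± 12.2 CPM at 3 µM (151 to 438 counts), with an adjusted p of 2.09e-04. It passed the filter on low counts through the treated libraries. Mef2c fell by 3.61 on the log2 scale (adjusted p = 0.00383, and −4.40 without the 3 µM library of culture 3) and Tcf7l2, a TCF factor that binds β-catenin, by 1.97 (adjusted p = 5.76e-06).

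Among 12439 genes with a mean of at least 50 counts, those most like each member were taken by Pearson's r of log2 CPM over the 12 libraries, which share dose and culture, so r is a description. Sox18 was most like Ushbp1 (0.994), Ldb2 (0.993) and Cd93 (0.992), of which Cd93 is a receptor of endothelial cells. For Sox10 the nearest were Asprv1 (0.986), Dsg1a (0.984) and Krtdap (0.983), of which Dsg1a, a desmoglein, and Asprv1, a protease, are genes of the differentiating epidermis. Sox21 was most like Rbfa (0.985), Ap1m2 (0.984) and H60c (0.984). Sox6 was most like Atg2a (0.989), Sox9 like Lrig2 (0.972), Sox7 like Gfod1 (0.976), Sox13 like Tmem251 (0.953), Sox4 like 1810011O10Rik (0.949) and Sox5 like Zbtb33 (0.946). Between members, r was 0.96 for Sox10 and Sox21 and −0.95 for Sox18 and Sox21.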

How the data were processed

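Per the labels' protocols, the 12 libraries were prepared from polyadenylated RNA with a stranded TruSeq kit and read on a HiSeq instrument. The submitters' processing notes name TopHat2 2.1, Bowtie 1.1.0, HTSeq and DESeq2 and the builds GRCm38 and mm10, with no role given, and the strand setting of the counting is not given in the sources used here. The authors deposited raw counts per gene for 25210 genes and a table of log2 values. Each deposited log2 value is that of the count per 10 M library counts (M for mega) plus 1 (0 values differed by over 1e-09 on recomputing), so the counts were used for all tests. Sample columns without a sample numbered 0. Library totals ran from 10.1 to 24.5 M counts. Libraries of the same group differed by at least 13.8 chi-square units per degree of freedom, so none was counted as a copy.

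Genes were filtered with filterByExpr, which left 15316, and scaled by edgeR's TMM factors. CPM are counts per M of the scaled library size. A quasi-likelihood model with a mean per group over all 12 libraries was fitted in edgeR 4.0.16 (R 4.3.3, robust, two-sided), with p-values adjusted by Benjamini-Hochberg over all genes tested and a threshold of 0.05. Slope, straight-line and culture-slope tests used dose as a number. A standard error is the fold change divided by the root of F. The scripts were tested on simulated data. Each replicate number is an animal and pairs the libraries: deviations from group means correlated in 18 of 18 same-numbered pairs (0.177 to 0.840). Values with the replicate block are therefore printed where they change a call of a SOX gene or move a count of a SOX gene list by over 1.5 times. They are also printed beside some calls that were lost without 1 library. Alternatives were the block, library size only, RLE scaling, DESeq2 1.42.0, no filter, only the groups compared, and leaving out each library. Leaving out each culture was added after seeing the data. Every member is named. From other lists up to 3 called genes are named, with a mean of at least 50 counts and the largest change at 3 µM. 1 gene that this rule names is not reported here. The members and lists were chosen with earlier results of these data known.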

Additional observations from a re-analysis of the deposited data

How the results depend on the processing

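Over 1249 values of a member under an alternative, 1128 kept their direction and their side of the threshold, 48 called in neither fit changed sign, 24 gained a call and 49 lost one, and no called value changed sign. With the replicate block (the same animal in each dose), the number of members called was 2 at 1 µM, 3 from 1 to 1.5 µM, 5 from 1.5 to 3 µM and 3 for departure from a straight line. No other count of members moved by over 1.5 times with the block, which changed the single calls of the members Sox6 at 1.5 µM and Sox9 at 3 µM. DESeq2 called 1 member at 1 µM and 1 from 1 to 1.5 µM. The fit of only the 2 groups compared called 1 from 1 to 1.5 µM and 1 from 1.5 to 3 µM. Scaling by library size alone called 2 for departure from a straight line (Sox5 and Sox10) and moved the median log2 fold change of all genes at 3 µM from −0.03 to −0.23. It gave 3395 genes higher and 5404 lower there, against 4575 and 4239 with TMM. From 1.5 to 3 µM it gave 1050 higher and 3860 lower, against 2601 and 1943, with a median of −0.28 against 0.00. Over all genes the block called 859 at 1 µM and 3351 from 1 to 1.5 µM, 7147 at 1.5 µM and 7149 from 1.5 to 3 µM, against 37, 831, 4177 and 4544 without it, and DESeq2 called 472 at 1 µM and 1634 from 1 to 1.5 µM. The cause of these differences was not tested. The share of all genes called is not given here for the fits of only 2 groups. Nor is it given for departure from a straight line with the block or with library size alone.

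Leaving out 1 library or 1 whole culture, the members called numbered 0 to 1 at 1 µM, 0 to 6 at 1.5 µM, 3 to 7 at 3 µM, 0 to 1 from 1 to 1.5 µM, 0 to 2 from 1.5 to 3 µM, 4 to 7 for the slope, 0 to 1 for departure from a straight line and 0 to 0 for a slope that differs between cultures. The share of all genes called in these fits is not given here, so the counts have no background beside them. The lowest counts at 1.5 and 3 µM, 0 and 3, and for the slope, 4, came without culture 2, which leaves 8 libraries. There Sox6, Sox13 and Sox18 were not called at 3 µM (adjusted p = 0.134, 0.157 and 0.0971). Without the 1.5 µM library of culture 1 or the DMSO library of culture 2, 3 were called at 1.5 µM. Without the DMSO library of culture 1, 1 was called at 1 µM and 1 from 1 to 1.5 µM, Sox10 in each. With 3 libraries a group and 1 to 5 counts of Sox15 in DMSO, the size of its increase is limited by depth.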
